A study of Homo sapiens with 4 samples.

Results

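The chemokines and chemokine receptors described here are 10 genes: the receptors CXCR4, ACKR3 and CCR1 and the ligands CXCL12, CCL2, CXCL1, CXCL2, CXCL8, CXCL16 and CX3CL1. They were found on the arrays by matching each probe's accession to the listed genes. This gave 14 of the 41000 probes, for 9 of the 10 genes, and 12 of these probes were bright enough to be tested among 39151. No probe accession was paired with CXCL16 in the gene table used, so CXCL16 was not analysed here.

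The samples were 3 stably transfected clones of A2780s, a human ovarian adenocarcinoma cell line. The clones labelled sh-G1 and sh-G2 carry an shRNA against GALNT3, an enzyme that starts mucin-type O-glycosylation, in the vector pSilencer 4.1 puro, and the control clone (ctrl) was mock-transfected with the vector alone. All were selected in puromycin at 5 µg/mL for 2 weeks, 1 shRNA sequence was used for both knockdown clones, and every group is 1 clone, so a difference between groups cannot be told apart from a difference between single clones. RNA of each knockdown clone was set against ctrl RNA on 2 two-colour Agilent Whole Human Genome arrays, in Cy5 on replicate 1 and in Cy3 on replicate 2, and the values given below are log2 ratios of knockdown over ctrl.

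The 4 arrays, which shared 1 slide, had 43376 spots that are not control spots, median intensities between 451.5 and 802.5, and local backgrounds with medians between 38 and 41. In a single channel 88.1% to 97.6% of spots stood well above background, and 0 were saturated. The GALNT3 probe, A_24_P114249, did not check the labels. It was well above background on 2 of 4 arrays for the knockdown clones and on 4 of 4 for ctrl. In ctrl it was only 0.29 log2 units above the dimmest signal counted as well above background. Its log2 ratios were -0.09 and 0.08 for sh-G1 and 0.12 and -0.14 for sh-G2, with a mean of -0.01 (limma adjusted p = 0.963). The clones are therefore called by their labels, and every direction below rests on them. Over 39151 probes the 2 arrays of a clone correlated with r of 0.32 for sh-G1 and 0.19 for sh-G2, while the arrays of different clones with the same dye orientation correlated with r of 0.61 and 0.73.

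Chemokines are small secreted proteins that bind receptors with 7 membrane-spanning segments, most of which signal through inhibitory G proteins and steer cell movement. CXCL12 acts through CXCR4 and is also bound by ACKR3, which takes up the ligand and signals through arrestins rather than G proteins. CXCR4 and CXCL12 are known for their part in the spread of ovarian and other carcinomas, and CXCL1, CXCL2 and CXCL8 are inflammatory chemokines that attract neutrophils.

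**Figure D1:**
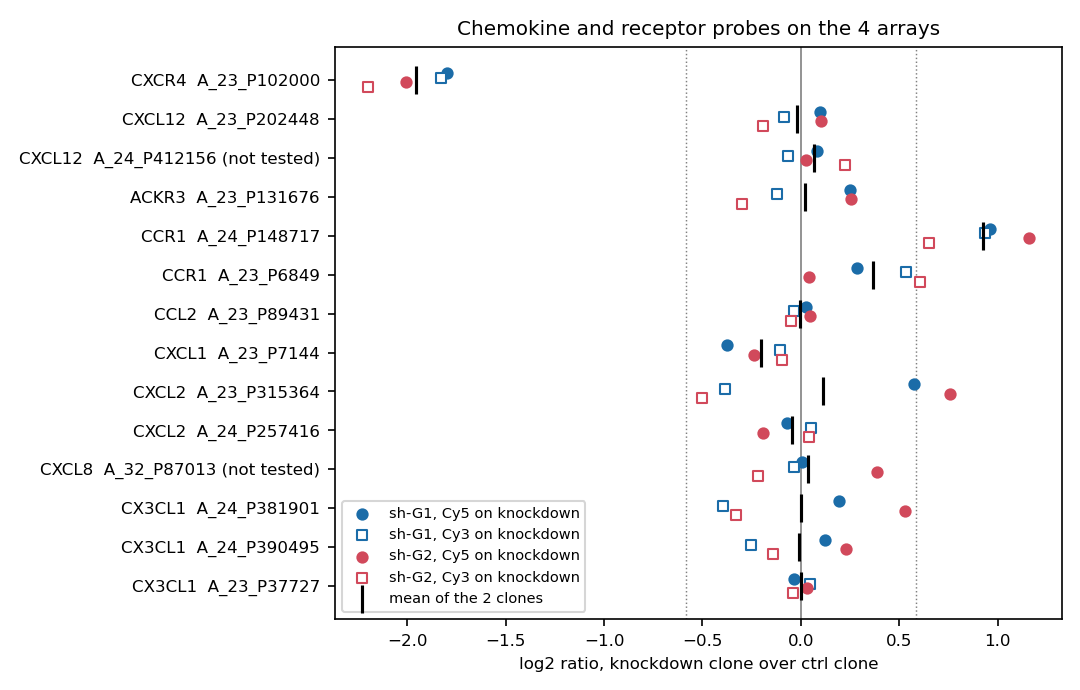
Log2 ratio of knockdown over ctrl (x axis) of each of the 14 probes (y axis) on the 4 arrays; blue marks sh-G1, red sh-G2, filled circles the knockdown clone in Cy5, open squares in Cy3, black bars the mean of the 2 clones and dotted lines 1.5-fold. The 4 CXCR4 values lie between -2.20 and -1.80 and those of the CCR1 probe A_24_P148717 between 0.65 and 1.16, while 7 of the 12 probes tested have filled circles on one side of 0 and open squares on the other.

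CXCR4 was lower in both knockdown clones and CCR1 was higher, and no other member passed the test. Both clones were set against the same single ctrl clone, whose own spread this test leaves out. Where ctrl was assigned a spread like that of the knockdown clones, neither call held (adjusted p = 0.162 for CXCR4 and 0.249 for CCR1), and 0 probes on the array were called by limma, with 1862 at an unadjusted p under 0.05. The members were chosen with earlier results of these data known, so their counts beside the shares of all probes are a description. By limma with Benjamini-Hochberg adjustment over all probes, 2 of the 12 probes tested were called, where 0.838% of all probes were. Of these, 1 was higher, as were 0.138% of all probes, and 1 was lower, as were 0.7%. The same 2 probes were the only members changed at least 1.5-fold on all 4 arrays, which 1.15% of all probes met, 0.23% as higher and 0.92% as lower. The study states its 1.5-fold rule for the duplicate arrays of each comparison, and it was applied here to both comparisons at once. An unadjusted p under 0.05 was reached by 4 of the 12, against 13.3% of all probes. The median log2 ratio over the 12 probes was -0.002 and over all probes it was -0.0037. In bulk RNA of a clone, fewer cells with a transcript and less of it per cell cannot be told apart.

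CXCR4, the receptor of CXCL12, was measured by 1 probe, A_23_P102000, printed at 10 spots on each array. Its log2 ratios were -1.80 and -1.83 on the sh-G1 arrays and -2.01 and -2.20 on the sh-G2 arrays. All 4 arrays were low, in either dye orientation. The mean of the 2 clones was -1.96 (SE 0.0943, n = 2 clones, 95% confidence interval -2.24 to -1.68, limma adjusted p = 0.0242), a 3.89-fold lower level, or between 0.212 and 0.312 of ctrl. This call was lost with a spread for ctrl. The dye term, by which the ratio with the knockdown clone in Cy5 departed from the overall mean, was 0.06.

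The levels, as normalised log2 intensities of single channels, were 11.17, 11.14, 11.24 and 11.10 in the ctrl channels of the 4 arrays. They were 9.38 and 9.31 in sh-G1 and 9.23 and 8.90 in sh-G2. The ctrl values did not overlap those of either clone, and the share of all probes without such overlap was not counted. The ctrl SD of 0.06 (n = 4 channels of 1 clone) measures the spread between channels and not between clones. In the knockdown clones the probe remained well above background on all 4 arrays, so CXCR4 RNA was reduced but still detected. sh-G2 lay lower than sh-G1 by 0.29 on the log2 scale (difference -0.29, SE 0.117, limma adjusted p = 0.688), a difference that did not pass the test.

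The replicate spots of the CXCR4 probe were also separated in the intensities before any normalisation. On the first sh-G1 array the 9 spots without an outlier mark ran from 388 to 706.5 for the knockdown clone and from 2976 to 3441 for ctrl. On the second sh-G1 array the 10 spots ran from 345 to 693 and from 1559 to 2560. On the first sh-G2 array the 7 spots used ran from 432 to 720 and from 3058.5 to 3473, and on the second the 10 spots ran from 306 to 678 and from 1631 to 2644.5. The 2 channels did not overlap on any array. Over all spots the median was 463.25 for knockdown and 802.5 for ctrl on the first sh-G1 array, and 469 and 758 on the first sh-G2 array. The raw gap on these arrays thus includes a difference between the channels as a whole. The medians were 451.5 and 500 on the second sh-G1 array and 594 and 558 on the second sh-G2 array. Single spots had log2 ratios between -2.66 and -1.37, with an SD within an array of 0.184 to 0.319, which measures the spread within an array and not between cultures.

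CXCL12, also named SDF-1, is the ligand of CXCR4, and its probe A_23_P202448, likewise printed at 10 spots, did not pass the test. Its log2 ratios were 0.10 and -0.09 in sh-G1 and 0.10 and -0.19 in sh-G2. They were above 0 when the knockdown clone carried Cy5 and below 0 when it carried Cy3. The mean was -0.02 (95% confidence interval -0.15 to 0.11, limma adjusted p = 0.908), or between 0.904 and 1.08 of ctrl in the signal of this probe. The probe was dim, at 1.97 log2 units above the dimmest signal counted as well above background in ctrl and 1.69 in the knockdown channels. The interval therefore does not bound the change in CXCL12 RNA. The other CXCL12 probe, A_24_P412156, passed background clearly on 1 of 4 arrays in each group and was not tested.

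**Figure D2:**
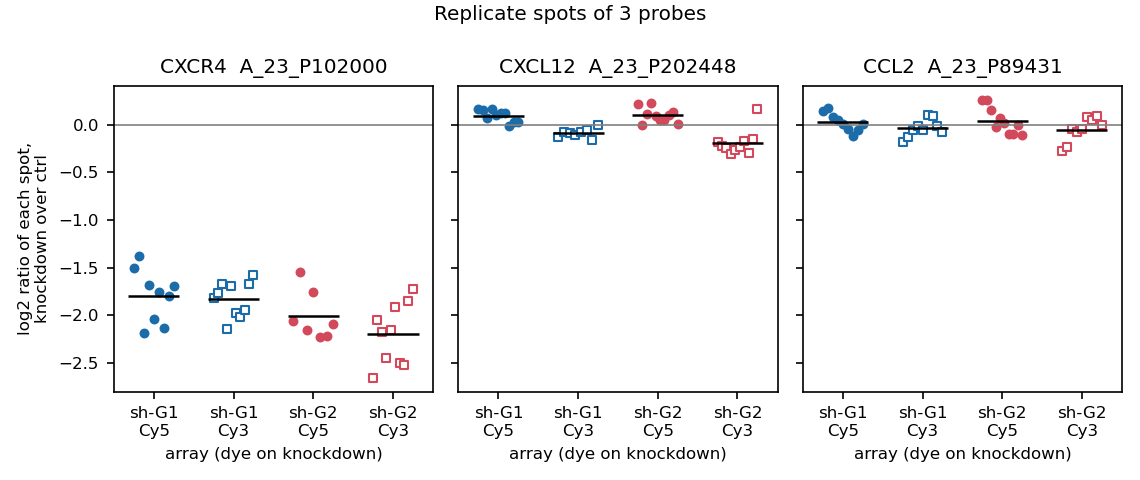
Log2 ratio of knockdown over ctrl (y axis) of every spot without an outlier mark for the 3 member probes printed 10 times, on each array (x axis, with the dye of the knockdown clone); black bars are array means. Every CXCR4 spot lies between -2.66 and -1.37, whereas the array means of CXCL12 and CCL2 lie between -0.19 and 0.10, above it with the knockdown clone in Cy5 and below it in Cy3.

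ACKR3, formerly CXCR7, the other receptor of CXCL12, had log2 ratios of 0.25 and -0.12 in sh-G1 and 0.26 and -0.30 in sh-G2 by its probe A_23_P131676. The sign again followed the dye. The mean was 0.02 (95% confidence interval -0.12 to 0.16, limma adjusted p = 0.914). In ctrl this probe was 2.25 log2 units above the dimmest signal counted as well above background. Of the CXCL12 receptors and their ligand, CXCR4 was thus the only one with a called change.

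CCR1, a receptor of inflammatory CC chemokines such as CCL3 and CCL5 best known on monocytes and other leukocytes, was higher in both clones by 1 of its 2 probes. The probe A_24_P148717 gave log2 ratios of 0.96 and 0.94 in sh-G1 and 1.16 and 0.65 in sh-G2. All 4 arrays were high. The mean was 0.93 (SE 0.0602, n = 2 clones, limma adjusted p = 0.0378), a 1.90-fold higher level, with a 95% confidence interval of 1.68 to 2.15 times ctrl. This call was lost with a spread for ctrl, and also without the second sh-G2 array, where the mean was 1.05 (limma adjusted p = 0.0591).

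The normalised log2 intensities of this probe were 13.86, 13.98, 13.95 and 14.03 in the ctrl channels, 14.82 and 14.92 in sh-G1 and 15.11 and 14.68 in sh-G2. The knockdown channels were all above the ctrl channels, with no overlap, and the share of all probes without such overlap was not counted. The ctrl SD of 0.07 measures the spread between channels of 1 clone and not between clones. The difference of sh-G2 from sh-G1 was -0.04 (SE 0.164, limma adjusted p = 0.992). This probe had 1 spot on each array, with intensities before normalisation of 24030 to 33354.3 for the knockdown clones and 13450.5 to 21826.4 for ctrl, none of them saturated.

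The other CCR1 probe, A_23_P6849, which has the same accession (NM_001295), was above 0 on all 4 arrays but did not pass the test. Its log2 ratios were 0.29 and 0.54 in sh-G1 and 0.04 and 0.61 in sh-G2. They were lower with the knockdown clone in Cy5 than in Cy3 in both clones, the reverse of most members. The mean was 0.37 (SE 0.0561, 95% confidence interval 0.20 to 0.53, limma adjusted p = 0.145). Its ctrl intensities ranged from 9.30 to 10.33 on the normalised log2 scale and overlapped those of sh-G2, 9.57 and 9.91. The 2 probes of CCR1 thus had the same direction and different sizes, and which transcript forms each one reads was not tested.

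**Figure D3:**
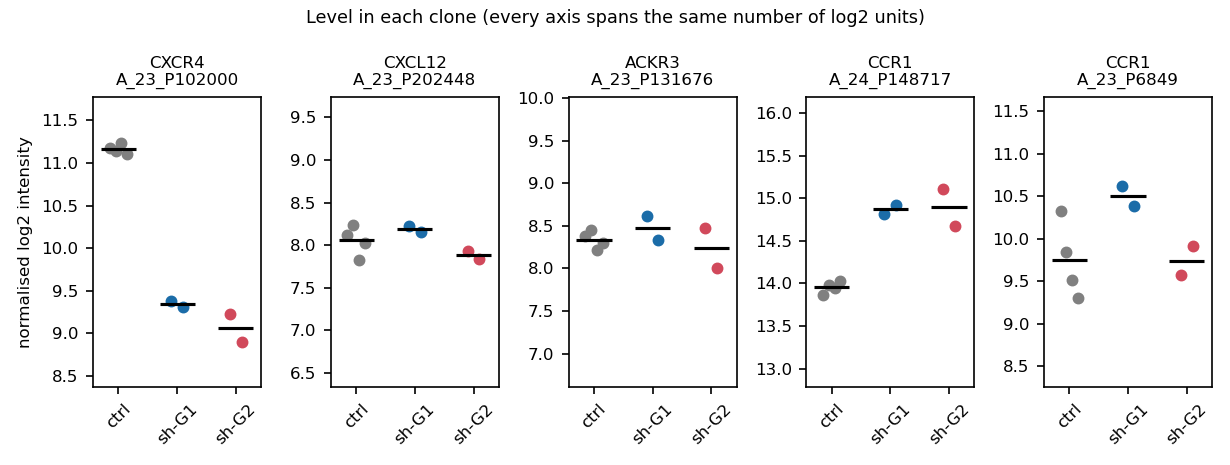
Normalised log2 intensity (y axis, spanning equal log2 units in each panel) of 5 probes of CXCR4, CXCL12, ACKR3 and CCR1 in ctrl, sh-G1 and sh-G2; points are single array channels and black bars their means. CXCR4 is at 11.16 in ctrl, 9.34 for sh-G1 and 9.06 for sh-G2, the CCR1 probe A_24_P148717 is at 13.96, 14.87 and 14.90, and the other 3 probes overlap between ctrl and at least 1 knockdown clone.

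CXCR4 lies on chromosome 2 (GRCh38.p14, 136114349 to 136118149) and CCR1 on chromosome 3 (46201711 to 46208313). The promoter sequences of these 2 genes, shown because they alone among the members passed the test, are the 250 bases before the annotated start in RefSeq on GRCh38.p14, 5′ to 3′ on the minus strand, at chr2:136118150-136118399 for CXCR4, the most upstream of its 3 listed starts, and at chr3:46208314-46208563 for CCR1.
CXCR4: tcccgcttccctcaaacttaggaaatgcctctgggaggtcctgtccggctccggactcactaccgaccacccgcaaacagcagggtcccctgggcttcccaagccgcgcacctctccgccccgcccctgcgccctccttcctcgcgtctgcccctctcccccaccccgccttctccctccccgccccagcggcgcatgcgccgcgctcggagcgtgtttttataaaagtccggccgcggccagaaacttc
CCR1: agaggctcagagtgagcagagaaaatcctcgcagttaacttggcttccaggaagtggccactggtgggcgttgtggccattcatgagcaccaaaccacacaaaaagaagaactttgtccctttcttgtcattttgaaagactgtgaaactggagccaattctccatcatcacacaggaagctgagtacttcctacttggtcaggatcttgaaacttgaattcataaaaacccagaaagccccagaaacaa
Neither holds a match on either strand to the kappaB consensus, to the AP-1 letters TGANTCA or to the core of hypoxia response elements, ACGTG. Of all 35116 promoter windows of this length in the table, 9.96%, 6.57% and 18.5% hold such a match. A window without a match says only that these letters are not in it.

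The inflammatory ligands that were measured did not pass the test in either direction. CCL2, also named MCP-1 and a ligand of CCR2, was measured by A_23_P89431 at 10 spots on each array. Its log2 ratios of 0.03 and -0.04 in sh-G1 and 0.04 and -0.05 in sh-G2 were among the smallest of the members. The mean was -0.00 (95% confidence interval -0.14 to 0.14, limma adjusted p = 0.988). In ctrl this probe was 3.37 log2 units above the dimmest signal counted as well above background.

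CXCL1, a ligand of CXCR2, was below 0 on all 4 arrays by A_23_P7144, with log2 ratios of -0.37 and -0.11 in sh-G1 and -0.24 and -0.09 in sh-G2. The difference was small and was not called. The mean was -0.20 (SE 0.0448, 95% confidence interval -0.34 to -0.07, unadjusted p = 0.0141, limma adjusted p = 0.236). Its ctrl levels, from 7.31 to 7.91 on the normalised log2 scale, overlapped those of sh-G2 at 7.43 and 7.67. The probe was dim, in ctrl 1.54 log2 units above the dimmest signal counted as well above background. CXCL1 and the CCR1 probe A_23_P6849 were the 2 uncalled members with the same sign on all 4 arrays, which held for 15.3% of all probes, called or not, 9.04% below 0 like CXCL1 and 6.21% above 0 like CCR1.

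CXCL2, a close relative of CXCL1, gave the clearest case of a sign that followed the dye. By A_23_P315364 the log2 ratios were 0.57 and 0.76 with the knockdown clones in Cy5 and -0.39 and -0.50 with the clones in Cy3. The dye term was 0.56 and the mean of the clones was 0.11 (limma adjusted p = 0.457). The other CXCL2 probe, A_24_P257416, went the opposite way with the dye, at -0.07 and -0.19 in Cy5 and 0.05 and 0.04 in Cy3, with a mean of -0.04 (limma adjusted p = 0.782). In ctrl the CXCL2 probes were 2.88 and 2.14 log2 units above the dimmest signal counted as well above background.

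The promoters of CXCL1 and CXCL2 are shown because they share the kappaB sequence, in capitals, although neither gene was called. They are the 250 bases before the starts in RefSeq on GRCh38.p14, at chr4:73869143-73869392 on the plus strand and at chr4:74099196-74099445 on the minus strand.
CXCL1: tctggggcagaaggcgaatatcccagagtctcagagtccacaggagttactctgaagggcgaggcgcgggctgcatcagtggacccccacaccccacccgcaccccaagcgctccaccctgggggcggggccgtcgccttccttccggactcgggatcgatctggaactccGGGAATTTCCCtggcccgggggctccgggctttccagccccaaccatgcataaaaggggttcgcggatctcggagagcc
CXCL2: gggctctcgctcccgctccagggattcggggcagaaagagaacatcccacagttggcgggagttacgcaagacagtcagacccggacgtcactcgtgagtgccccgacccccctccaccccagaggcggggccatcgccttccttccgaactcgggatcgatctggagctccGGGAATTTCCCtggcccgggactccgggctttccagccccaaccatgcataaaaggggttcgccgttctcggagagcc
The capitals hold 2 overlapping matches, 1 on each strand, at positions -79 to -69 from the start of CXCL1 and -78 to -68 from that of CXCL2. The pair also shares an identical run of 42 bases, at positions -57 to -16 from both starts.

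CXCL8, also named IL8, is a ligand of CXCR1 and CXCR2. Its probe A_32_P87013 stood well above background on 0 of 4 arrays, in either group, with spot intensities of 53 to 58 in the knockdown clones and 50 to 65 in ctrl over a local background near 40. CXCL8 was therefore not tested, and a difference at this level was not detectable. CX3CL1, or fractalkine, is a membrane-bound ligand of CX3CR1 that can be shed. Its 3 probes had mean log2 ratios of -0.00, -0.01 and 0.00 (limma adjusted p = 0.998, 0.963 and 0.997). In ctrl these probes were 3.83, 2.34 and 2.32 log2 units above the dimmest signal counted as well above background. For a dim probe a mean near 0 does not show that the RNA was unchanged.

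The widest spread among them was that of A_24_P381901, at 0.19 and -0.40 in sh-G1 and 0.53 and -0.33 in sh-G2. A_24_P390495 ran from -0.25 to 0.23 and A_23_P37727 from -0.04 to 0.05. The first 2 followed the dye in both clones. In all, 7 of the 12 member probes took their sign from the dye on all 4 arrays, as did 40.5% of all probes.

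**Figure D4:**
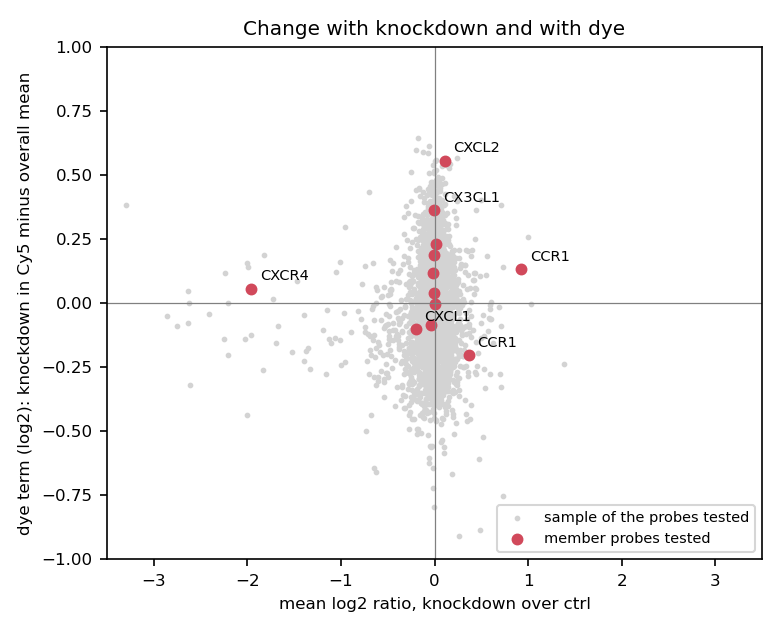
Mean log2 ratio of knockdown over ctrl (x axis) against the dye term (y axis, log2, the ratio with the knockdown clones in Cy5 minus the overall mean) for the 12 member probes tested (red) and a regular sample of all probes tested (grey). CXCR4 at -1.96 and the CCR1 probe A_24_P148717 at 0.93 have dye terms of 0.06 and 0.13. The CCR1 probe A_23_P6849 at 0.37 has a dye term of -0.20, and the CXCL2 probe A_23_P315364 at 0.11 has 0.56.

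No member had a called difference between the clones. Of the 12 probes, 0 had a called difference of sh-G2 from sh-G1, against 0.123% of all probes, and 0 had an unadjusted p under 0.05, against 7.45%. The smallest limma adjusted p was 0.688, for CXCR4. With 1 clone each and 2 arrays a clone, this compares the clones against the spread between arrays.

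The rest of the chemokine system was followed through 3 lists of genes, each gene by its brightest tested probe. Of 41 other chemokine ligands, 36 had a probe and 33 were tested. By limma 0 were called and by 1.5-fold on all 4 arrays 0 were called, and 0 had an unadjusted p under 0.05. Over all 16882 genes, limma called 0.184% higher and 0.906% lower, the 1.5-fold rule took 0.355% higher and 1.29% lower, and 15.3% had an unadjusted p under 0.05. The mean log2 ratios of the ligands ran from -0.09, for CXCL13, to 0.07, for CCL27, with a median of 0.02. Of the 33, 27 were well above background on all 4 arrays in the knockdown channel. Several were dim: in ctrl CXCL13 was 0.83, CXCL10 1.14 and CCL5 1.74 log2 units above the dimmest signal counted as well above background. CCL13, at 5.72, and CCL24, at 6.3, were brighter. For a dim probe a ratio near 0 does not show that the RNA was unchanged. CCL5, a ligand of CCR1, had a mean of 0.00 (limma adjusted p = 0.996), and CXCL10, an interferon-induced ligand of CXCR3, had a mean of -0.06 (limma adjusted p = 0.672).

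Of 20 other chemokine receptors, 19 were tested, with 0 called by either rule, 1 at an unadjusted p under 0.05 and a median of 0.01. The median over all genes was -0.0039. CCR10, a receptor of CCL27 and CCL28 named here after its values were seen, had the highest mean, 0.32, with 0.08 for sh-G1 and 0.56 for sh-G2 (limma adjusted p = 0.463). It was not the receptor under 0.05 (limma unadjusted p = 0.0863).

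Of 36 signalling and processing partners, such as G protein subunits, receptor kinases, arrestins and proteases, 35 were tested, with 0 called by either rule and 4 at an unadjusted p under 0.05, beside 15.3% of all genes. The median was 0.03. These 4, named after their values were seen, were GRK5, RGS13, GNAI1 and RGS16. GRK5, a kinase that phosphorylates active G protein-coupled receptors, had log2 ratios of 0.41 and 1.08 in sh-G1 and 0.41 and 0.97 in sh-G2. It was above 0 on all 4 arrays, with a mean of 0.72 just short of a call (limma adjusted p = 0.0551).

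RGS13, which limits signalling by G protein alpha subunits, had 0.85 and 0.38 in sh-G1 and 0.70 and 0.30 in sh-G2 (mean of the clones 0.56, limma adjusted p = 0.0642). GRK5 was higher with the knockdown clone in Cy3 and RGS13 with it in Cy5, in both clones. GNAI1, an inhibitory G protein alpha subunit, had a mean of 0.17 (limma adjusted p = 0.348), and RGS16 had a mean of -0.28 (limma adjusted p = 0.234). The remaining partners had means between -0.16, for ADAM17, a sheddase that cleaves CX3CL1 and CXCL16, and 0.23, for GRK3, another receptor kinase (limma adjusted p = 0.465 and 0.403).

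**Figure D5:**
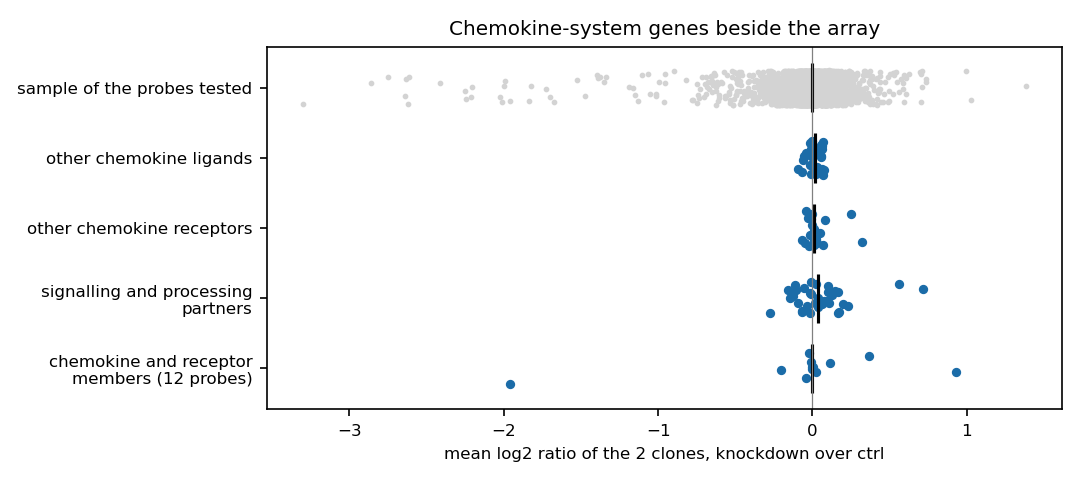
Mean log2 ratio of the 2 clones (x axis) for a regular sample of all probes tested, the genes of the 3 lists and the 12 member probes; black bars are medians. The ligands, several of them dim, lie between -0.09 and 0.07, the receptors between -0.07 and 0.32 and the partners between -0.28 and 0.72. CXCR4 stands at -1.96 and the CCR1 probe A_24_P148717 at 0.93.

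Markers of other cell types were read beside these results, and their part in the results was not tested. Leukocyte markers, of interest because CCR1 and CXCR4 are leukocyte receptors, included 6 of 7 genes tested, of which 0 were called by limma and 0 had an unadjusted p under 0.05. Their summed intensity was 5550 to 7160 in ctrl, 5920 to 7490 for sh-G1 and 6010 to 6510 for sh-G2, which overlap. PTPRC, the pan-leukocyte antigen CD45, had a mean log2 ratio of 0.04 and CD14 had 0.04, and LYZ was not bright enough to be tested.

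The summed signal of fibroblast markers was lower in both knockdown clones than in ctrl. Over 5 of 6 genes the summed intensity was 41300 to 43800 in ctrl, 10100 to 10300 for sh-G1 and 13600 to 14300 for sh-G2. CXCR4 was at -1.81 in sh-G1 and -2.10 in sh-G2, a difference that was not called. Whether its fall is related to this sum was not tested. DCN alone had an intensity of 26300 in ctrl. DCN and LUM, matrix proteoglycans, met the 1.5-fold rule on all 4 arrays and did not pass limma (adjusted p = 0.187 and 0.221). DCN was at -4.24 in sh-G1 against -2.09 in sh-G2, and LUM at -4.58 against -2.04, differences between the clones that were called (limma adjusted p = 0.03 and 0.0182). The other markers had means of -0.55 for THY1, -0.33 for COL1A2 and -0.003 for FAP. Of the 5 fibroblast markers 0 were called by limma and 4 had an unadjusted p under 0.05. The endothelial markers summed to 2050 or more in ctrl and to between 2040 and 3030 in the knockdown clones, which overlap, with 0 of 5 called and 0 at an unadjusted p under 0.05.

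Of the 8 epithelial and ovarian cancer markers, all were tested and 2 fell by their brightest probe, the keratins KRT8 (mean -1.03, limma adjusted p = 0.0316) and KRT18 (mean -2.32, limma adjusted p = 0.0365). The other KRT8 probe, A_24_P67395, was not called (mean -0.44, limma adjusted p = 0.151). The sum over all 8 markers was 16600 to 19400 in ctrl and 7590 to 9060 in the knockdown clones. KRT18 alone had an intensity of 9580 in ctrl. KRT19, PAX8 and WT1 had means of 0.04, -0.01 and -0.05, and EPCAM had -0.33, not called. CDH1, or E-cadherin, and MUC16, the CA125 antigen, were dim in ctrl, at 1.26 and 1.85 log2 units above the dimmest signal counted as well above background, and had means of -0.01 and -0.02.

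The genes most like CXCR4 in their 4 log2 ratios, by Euclidean distance over the 4 arrays, were KCNC1 (distance 0.224, mean -1.96), PLXDC2 (0.262, mean -1.83) and ZNF426 (0.285, mean -2.09). Those most like the CCR1 probe A_24_P148717 were SNX10 (0.209, mean 0.93), LTN1 (0.283, mean 0.85) and BCAT1 (0.303, mean 1.00). These were picked from the same arrays for their likeness and serve as a description.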

How the data were processed

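Total RNA of 2 GALNT3 knockdown clones and 1 ctrl clone of A2780s was hybridised to 4 two-colour arrays. The authors scanned the arrays and deposited Agilent Feature Extraction files (version 10.5.1.1 in the file headers, 8.5.1.1 in the submitters' processing notes) with the median spot intensity and local background of each channel, and the software's log10 ratio of Cy5 over Cy3. The deposited series matrix holds the same log10 ratios for 3 arrays and the error of the ratio for the second sh-G1 array. The software's p-values were not used. The median spot intensity replaced the mean, which the files used here do not hold.

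Outlier-marked spots were excluded. After normexp background correction (offset 50) and loess within arrays (limma 3.58.1, R 4.3.3), log2 ratios were oriented as knockdown over ctrl and averaged over the spots of a probe. A probe was tested if on every array either channel was well above background, which held for 39151 of the 40905 with a value on all 4. The pair of dye-swapped arrays was averaged to 1 replicate per clone, since no source says that they hold separate extracts, and the 2 clones were tested against 0 with lmFit and eBayes (trend), with Benjamini-Hochberg adjustment and a threshold of 0.05. The clone difference was fitted on 4 arrays with a dye term. Levels are single-channel log2 intensities after Aquantile normalisation and are compared only within a probe. The number of arrays limits the precision.

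Probes were named by accession through a RefSeq table of GRCh38.p14 (25398 of 41000), with promoters from the same source for 6 of the 10 members. The rule named the members, GALNT3, list genes past either rule and, for CXCR4 and CCR1, the 3 nearest probes of other genes. The list genes named that pass neither rule were chosen after their values were seen. The values of 1 list gene are not reported here. The members and lists were chosen with earlier results of these data known. The fits were tested on simulated log2 ratios with no dye effect and no error shared through the ctrl clone. That test does not show how the fits behave with either. The alternatives were other background corrections and scalings, the software's and the matrix's ratios, other filters, arrays and clones left out, random and replicate blocks, ctrl spread, no trend, and other fold rules. Figures were made with Python 3.11.15 and matplotlib 3.10.9.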

Additional observations from a re-analysis of the deposited data

How the results depend on the processing

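CXCR4 stayed lower in all 16 tested alternatives, with a mean log2 ratio between -2.09 and -1.91, and passed the threshold in 15. The CCR1 probe A_24_P148717 stayed higher in all 16, between 0.78 and 1.05, and passed in 14. With ctrl given the spread of the knockdown clones, CXCR4 at -1.96 (adjusted p = 0.162) and CCR1 at 0.93 (adjusted p = 0.249) did not pass, and the calls fell to 0 higher and 0 lower over all probes, against 54 and 274, and to 0 and 0 among the members, against 1 and 1. Dim probes and the number of clones limit what can be seen: CXCL8 and 1 CXCL12 probe had no usable signal.

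The replicate number marks the dye orientation and was given in accession order. With the replicate block, as a dye term over 4 arrays, calls rose to 663 higher and 1474 lower over all probes and to 2 higher among the members, the CCR1 probe A_23_P6849 passed at 0.37 (adjusted p = 0.0474), and 2 partners were called, GRK5 and RGS13. Without the block the clone difference was called for 5 probes in place of 48. With clone as a random block, whose estimated correlation was -0.656, calls were 848 and 1721 over all probes and 2 and 2 among the members, with CCR1 A_23_P6849 at 0.37 (adjusted p = 0.0203) and CXCL1 at -0.20 (adjusted p = 0.0348), and 1 other receptor and the same 2 partners were called. CXCR4 and the CCR1 probe A_24_P148717 passed in both fits, which count the arrays, not the clones, as replicates.

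By the software's own log ratio 118 probes were called higher, and 1 partner was called by limma, GRK5, and 2 by the 1.5-fold rule, GRK5 and RGS13. By the series matrix values of 3 arrays 213 and 789 probes were called by limma and 140 and 603 by the 1.5-fold rule, with 2 partners by each. By the mean of all probes of a gene 2 partners were called. A rule of 1.5-fold by the mean of the clones took 261 probes higher and 659 lower, and 2-fold on all 4 arrays took 35 and 187, with 0 members higher. The 1.5-fold rule took 216 and 557 without sh-G1 and 173 higher without sh-G2, against 90 and 360 with both.

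With single arrays left out, calls over all probes ranged from 56 to 339 higher and from 322 to 867 lower, the 1.5-fold calls from 93 to 136 higher and from 382 to 451 lower, members called higher from 0 to 2, and partners called at 1 each time (GRK5 without either replicate 1, RGS13 without either replicate 2). The CCR1 probe A_24_P148717 ranged from 0.80 to 1.05 and fell short without sh-G2 replicate 2 (adjusted p = 0.0591), and A_23_P6849 ranged from 0.23 to 0.51 and passed without sh-G2 replicate 1 (adjusted p = 0.0463).

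Changes of sign arose only in values that did not pass the test. Under median centring ACKR3 was at -0.0065, CX3CL1 A_23_P37727 at -0.0249 and GALNT3 at 0.160. With the software's ratio CXCL12 was at 0.0332, CCL2 at 0.0243, CX3CL1 A_24_P390495 at 0.0052, GALNT3 at 0.115 and the clone difference of CXCL2 A_23_P315364 at -0.164. With the series matrix CXCL12 was at 0.0322, CCL2 at 0.0664 and CX3CL1 A_24_P381901 at 0.0083. That probe was at 0.0016 with an offset of 0. Without background correction GALNT3 was at 0.0254 and the clone difference of CX3CL1 A_23_P37727 at 0.007, and with outlier spots kept CCL2 was at 0.0039. With single arrays left out, ACKR3 ranged from -0.118 to 0.16, CXCL12 from -0.0929 to 0.0527, CCL2 from -0.0265 to 0.0202, CXCL2 from -0.206 to 0.426 (A_23_P315364) and from -0.101 to 0.0151 (A_24_P257416), CX3CL1 from -0.215 to 0.214 (A_24_P381901), from -0.105 to 0.0837 (A_24_P390495) and from -0.0201 to 0.0215 (A_23_P37727), and GALNT3 from -0.0756 to 0.0592. The cause of these moves was not tested.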
